A study of Mus musculus with 4 samples.

Results

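The cells described here are CD8 T cells of the spleen and blood that carried transcripts of memory and effector genes. They were chosen from a droplet library of mouse immune cells by a gate on their own transcripts. A cell entered with at least 1 UMI (a counted RNA molecule) of Cd3d, Cd3e or Cd3g, at least 1 of Cd8a or Cd8b1, no UMI of Cd4, Cd79a or Cxcr6, and at least 2 UMIs summed over Cxcr3, Il2rb, Eomes, Nkg7 and Ccl5. Of 6741 cells assigned to a mouse and tissue, 340 passed, 220 from spleen and 120 from blood. They are called gated CD8 T cells below, because the data bear out the name memory-like for only some of them.

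All the mice were of the B6 strain and carried the BeCon tumour, a model of ovarian cancer according to the series title. YKL-05-099, an inhibitor of the salt-inducible kinases, was given to 3 of them (treated mice 2, 3 and 4), and 3 others received the vehicle (vehicle mice 1, 2 and 3). Spleen and blood of each mouse were marked with hashtag antibodies, sorted for viable CD45+ MHCI+ cells and run together as 1 library with the 10x Genomics 3′ v3.1 kit. Age, dose and duration are not given in the sources used here, and equal mouse numbers in the arms name different animals. The gate gave 19, 31 and 31 cells in treated spleens, 57, 40 and 42 in vehicle spleens, 12, 9 and 18 in treated blood, and 30, 28 and 23 in vehicle blood.

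Memory CD8 T cells are long-lived descendants of cells that have met antigen. Central memory cells keep the lymph node homing receptor CCR7, and most memory cells carry CD122, the interleukin 2 and 15 receptor chain encoded by Il2rb, with CXCR3 and the transcription factor EOMES. Cells of this type also arise without infection in laboratory mice. The salt-inducible kinases phosphorylate the CRTC coactivators of CREB and class IIa histone deacetylases, which keeps them in the cytoplasm.

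The library held 14792 barcodes and 92064806 UMIs, and 11513 barcodes passed the filters on genes, UMIs and mitochondrial share. The gated CD8 T cells had a median of 7479.5 UMIs (2554 to 19228), against 5706 in B cells and 5987 over all assigned cells. Of the 995 assigned cells with both Cd3 and Cd8 transcripts, 42 were removed for Cd4, then 403 for Cd79a and 88 for Cxcr6, and 462 CD8 T cells remained. The ascites library of the same series shared 52 of its 13688 barcode sequences with this one. Transcripts of other cell types were widespread. Ighm, an immunoglobulin heavy chain of B cells, had a UMI in 98.5% of the gated CD8 T cells. Lyz2, a lysozyme of myeloid cells, had one in 47.4%. The part of free RNA from other cells in these shares was not tested, nor was that of droplets with several cells.

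The gate rested mainly on Nkg7, a granule protein gene, and Ccl5, a chemokine gene. Nkg7 had a UMI in 95.3% of the gated cells and in 12.5% of B cells (cells with Cd79a and no Cd3 or Cd8 transcript). This B cell set excluded no NK or myeloid cells. Tyrobp and Fcer1g, genes of NK and myeloid cells, had a UMI in 43.2% and 24.4% of the set. In the gated cells these shares were 19.1% and 17.4%. The part of other cell types in the B cell values was not tested. Ccl5 had one in 59.4% and in 33.0% of B cells. The genes that define the label were found less widely. Il2rb had a UMI in 47.9% of the gated cells and 7.92% of B cells, Cxcr3 in 20% and 2.26%, and Eomes in 14.1% and 2.68%. Of the 340 cells, 146 (42.9%) passed on Nkg7 and Ccl5 without any UMI of the other gate genes. The sum of 2 gate UMIs was also reached by 466 of 3093 cells of the B cell set (15.1%), at a lower median depth. A low sum thus also occurred in cells without Cd3 or Cd8 transcripts. At the threshold itself, 52 cells had exactly 2 gate UMIs and were inside, while 84 CD8 T cells had 1 and 38 had none and were outside.

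Memory and naive transcripts divided the gated cells at a higher number of gate UMIs. This is a description of cells chosen on the same transcripts, with no test. Ly6c2, a surface protein gene of memory CD8 T cells, averaged 538 ± 92.2 counts per 1000000 UMIs (CPM) in the 184 cells with 6 or more gate UMIs. It averaged 109 ± 75.1 CPM in the 156 cells with 2 to 5 and 70.0 ± 75.4 CPM in the 122 CD8 T cells with at most 1 (SD over 6 mice, spleen and blood summed). Hopx, a transcription cofactor of effector and memory cells, followed the same order, at 151 ± 23.8, 25.8 ± 9.11 and 16.7 ± 9.17 CPM. Cd160, a receptor of cytotoxic cells, averaged 45.7 ± 16.6, 6.96 ± 6.62 and 5.04 ± 6.33 CPM. The cells with 2 to 5 gate UMIs thus lay close to those outside the gate for these genes.

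Several genes of naive and central memory cells had lower means at 6 or more gate UMIs. Ccr7, the lymph node homing receptor, averaged 112 ± 42.8 CPM there, 194 ± 24.7 CPM at 2 to 5 and 155 ± 47.8 CPM at most 1. Lef1, a transcription factor of naive and early memory T cells, averaged 211 ± 35.6, 343 ± 81.5 and 318 ± 63.5 CPM, and Igfbp4, a naive T cell transcript, 29.5 ± 24.0, 89.6 ± 34.5 and 70.7 ± 27.9 CPM. Cd44, the usual surface marker of memory T cells, did not follow this division. It averaged 52.2 ± 15.3 CPM at 6 or more gate UMIs, 17.2 ± 17.05 CPM at 2 to 5 and 95.6 ± 100.8 CPM at most 1, and had a UMI in 20.9% of all gated cells and 28.8% of B cells.

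**Figure D1:**
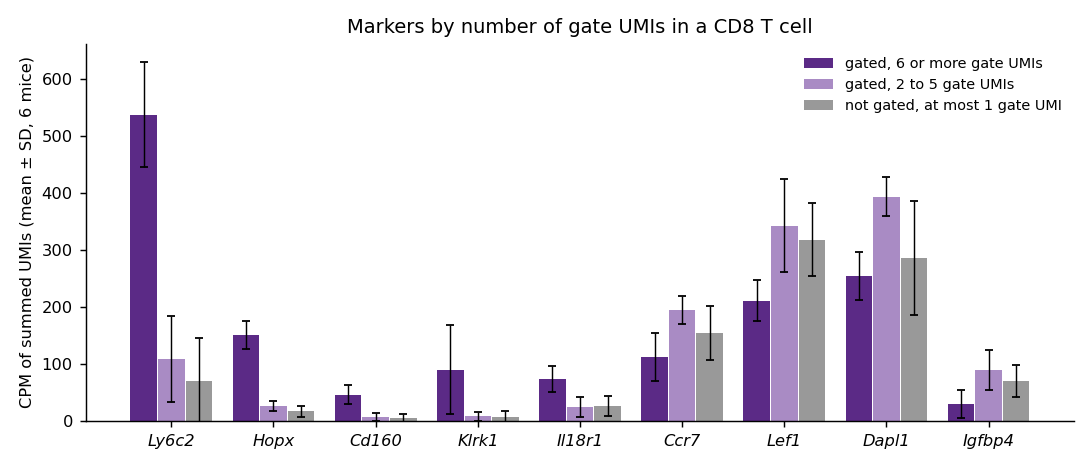
Levels of 9 genes in CD8 T cells, grouped by their number of gate UMIs (dark, 6 or more; light, 2 to 5; grey, outside the gate with at most 1). Bars are the mean and error bars the SD of CPM over 6 mice, cut at 0. Ly6c2 stands at 538 CPM in the first group against 109 and 70.0 CPM in the others, while Ccr7 stands at 112 CPM against 194 and 155 CPM.

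Effector genes were found to differing extents. Gzma, a granule protease gene, had a UMI in 11.5% of the gated cells and 12.7% of B cells, and Gzmb in 4.41% and 3.94%. Ifng had one in 7.06% and 2.13%, Pdcd1, the PD-1 receptor gene, in 2.06% and 0.388%, and Klrg1, a receptor of short-lived effector cells, in 1.47% and 1.16%. The Gzma, Gzmb and Klrg1 shares thus lay near those of the B cell set, which excluded no NK cells. Other genes of cytotoxic cells were more common. Ctsw had a UMI in 61.2% of the gated cells and 6.21% of B cells, Runx3 in 56.2% and 21.1%, and Prf1 in 28.2% and 5.08%. Il7r, the interleukin 7 receptor that sustains naive and memory cells, had one in 84.4%. The cells with 6 or more gate UMIs made up 68.4%, 48.4% and 74.2% of the gated cells in treated spleens and 59.7%, 60.0% and 61.9% in vehicle spleens. In blood they made up 25%, 44.4% and 44.4% in treated mice and 50%, 39.3% and 34.8% in vehicle mice. The share was higher in spleen than in blood in each of the 6 mice.

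Markers of other cell types differed between samples. In spleen those of NK and erythroid cells did so through a single sample, and those of CD4 or regulatory T cells between the arms. The 7 NK cell markers summed to 8.54 to 333 CPM in treated spleens and 21.3 to 55.4 CPM in vehicle spleens. The highest spleen value came from treated mouse 2, and Gata2 was the marker with no UMI in any gated cell, which allows up to 1.14 CPM (3 counts). In blood the NK cell markers summed to 0 to 7.21 CPM in treated mice and 9.08 to 176 CPM in vehicle mice. The treated blood values lie below 3 counts, which make 21.6 to 51.8 CPM there. The 6 erythroid genes summed to 59.9 to 20170 CPM in treated spleens and 119 to 739 CPM in vehicle spleens, with the highest value in treated mouse 3. B cell markers summed to 1861 to 3030 CPM in treated spleens and 2238 to 7753 CPM in vehicle spleens, with overlap. Myeloid markers summed to 629 to 1022 CPM in treated spleens and 693 to 1866 CPM in vehicle spleens, with overlap. The 6 markers of CD4 or regulatory T cells, among them Ikzf2 and Foxp3, summed to 137 to 222 CPM in treated spleens and 33.9 to 76.2 CPM in vehicle spleens, without overlap. Ikzf2 is itself a gene that differed between these spleens (below), and whether the arms separate without it was not tested. Foxp3 itself, the regulator that defines regulatory T cells, lay at 29.6 and 12.8 CPM in the spleens of treated mice 2 and 3 and 3.05 CPM in that of vehicle mouse 2. It had no UMI in the other 3 spleens, which allows 7.20 to 11.2 CPM (3 counts). The part of these cells in the results below was not tested, except where values without them are given.

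The gated CD8 T cells took a smaller share of the spleen and of the blood in treated mice. In spleen they were 2.43%, 4.10% and 3.85% of the assigned cells of treated mice and 8.98%, 6.85% and 7.01% of those of vehicle mice. The arms did not overlap. The means were 3.46% ± 0.898 and 7.61% ± 1.18 (SD, n = 3 each), a difference of -4.16 percentage points with an exact two-sided permutation p of 0.10 (adjusted p = 0.133 over 4 shares). In blood they were 3.19%, 2.37% and 3.94% in treated mice and 6.70%, 6.88% and 4.51% in vehicle mice, again without overlap. The blood means were 3.17% ± 0.786 and 6.03% ± 1.32 (SD, n = 3 each), a difference of -2.86 points with an exact p of 0.10. With 3 mice against 3, 0.10 is the smallest p this test can give, so neither difference could pass 0.05. Both differences were negative in every alternative that was run.

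CD8 T cells as a whole also took a smaller share. All 462 CD8 T cells made up 4.74% ± 0.785 of assigned spleen cells in treated mice and 10.2% ± 0.889 in vehicle mice (exact permutation p = 0.10, n = 3 each). In blood they made up 4.79% ± 1.11 in treated mice and 7.95% ± 1.48 in vehicle mice (exact permutation p = 0.10). Without any gate on single cells, Cd8a and Cd8b1 transcripts over all assigned spleen cells came to 108 ± 14.8 CPM in treated mice and 167 ± 28.9 CPM in vehicle mice. Within the CD8 T cells, the gated share of the spleen was 72.2% ± 7.69 in treated mice and 74.8% ± 6.32 in vehicle mice, with overlapping arms (exact permutation p = 0.70, n = 3 each). In blood it was 65.9% ± 1.38 and 75.5% ± 3.54 without overlap (exact permutation p = 0.10), a difference of -9.63 points that became 1.51 points when each cell was thinned to 2000 UMIs and -0.249 points with HTODemux. The B cell set made up 46.9% ± 4.17 of assigned spleen cells in treated mice and 34.1% ± 0.448 in vehicle mice. All shares sum to a fixed total, so a lower share of CD8 T cells and a higher share of B cells cannot be told apart. The gate also removed 403 cells with Cd3 and Cd8 transcripts for a Cd79a UMI. Whether that loss differed between the arms was not tested.

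**Figure D2:**
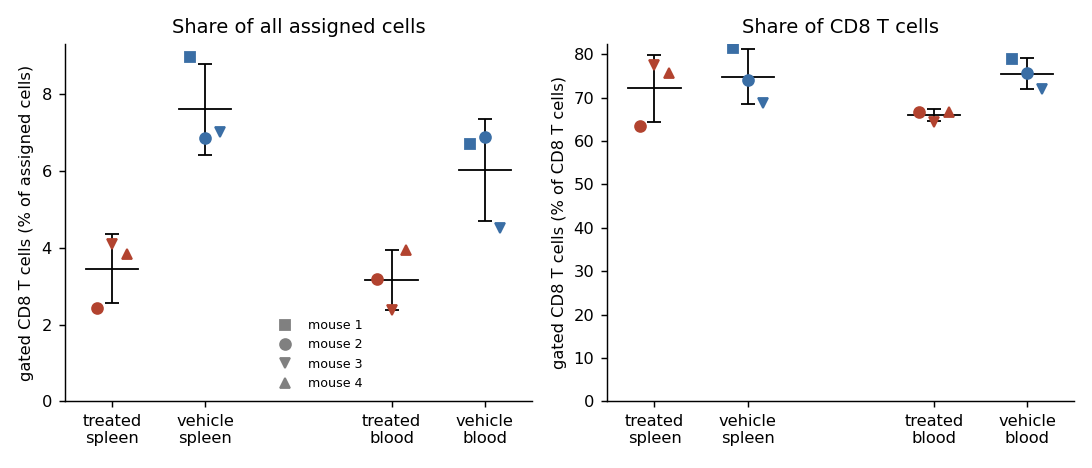
Gated CD8 T cells as a percentage of all assigned cells (left) and of all CD8 T cells (right), in treated (red) and vehicle (blue) mice. Each symbol is 1 mouse, lines are means and error bars SD of 3 mice. In the left panel every treated mouse, up to 4.10% in spleen and 3.94% in blood, lies below every vehicle mouse of that tissue.

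Few genes differed between treated and vehicle mice within the gated cells. Counts were summed per mouse and tested with edgeR's quasi-likelihood test at a Benjamini-Hochberg adjusted p of 0.05. In spleen 5 of 2881 genes passed (0.174%), of which 1 was higher (0.0347%) and 4 were lower (0.139%) in treated mice, and 179 had an unadjusted p under 0.05. DESeq2's Wald test called none, with 64 genes at an unadjusted p under 0.05. Without treated mouse 4 none passed, without treated mouse 2, which gave 19 spleen cells, 15 passed, and without vehicle mouse 1 or 3 the count was 2 or 3.

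The gene that was higher in treated spleens was Ikzf2 (chromosome 1, 69531214 to 69687245, minus strand, GRCm38), which encodes Helios, a transcription factor of regulatory T cells and of some CD8 T cells. It stood at 126, 85.4 and 116 CPM in treated spleens and 52.8, 39.6 and 12.3 CPM in vehicle spleens, without overlap. The log2 fold change was 1.504 ± 0.32 (SE, edgeR adjusted p = 0.0134). In blood it ran from 0 to 34.5 CPM in treated mice and from 0 to 68.1 CPM in vehicle mice. It kept its call in 11 of 18 alternatives in spleen, and was lost without treated mouse 4 or vehicle mouse 3. The sum of CD4 and regulatory T cell markers given above contains Ikzf2, so its separation of the arms in spleen is not a second result.

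Lower in treated spleens was Socs3 (chromosome 11, 117966079 to 117970047, minus strand), which encodes a feedback inhibitor of cytokine receptors that signal through JAK and STAT proteins. It stood at 7.41, 4.27 and 18.7 CPM in treated spleens and 52.8, 45.7 and 67.7 CPM in vehicle spleens. The values of treated mice 2 and 3 lie below 3 counts, which make 22.2 and 12.8 CPM there. The arms did not overlap, and the log2 fold change was -2.33 ± 0.50 (SE, edgeR adjusted p = 0.0134). In blood Socs3 lay at 22.9, 0 and 21.6 CPM in treated mice and 26.01, 36.3 and 30.1 CPM in vehicle mice. The zero came from the 9 cells of treated mouse 3, whose UMIs allow up to 51.8 CPM (3 counts). In B cells of the same spleens Socs3 was at 9.42 ± 1.17 CPM in treated mice and 8.51, 15.6 and 12.1 CPM in vehicle mice.

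Trnp1 (chromosome 4, 133491100 to 133498550, minus strand), a gene for a nuclear protein studied in brain development, stood at 7.41, 4.27 and 11.2 CPM in treated spleens and 64.8, 36.6 and 49.3 CPM in vehicle spleens (log2 fold change -2.68 ± 0.56, edgeR adjusted p = 0.0134). The lowest vehicle spleen thus exceeded the highest treated one. No treated value was above 3 counts, which make 22.2, 12.8 and 11.2 CPM in these spleens. Smim4, which encodes a small mitochondrial protein, stood at 22.2, 55.5 and 41.2 CPM in treated spleens and 100.8, 100.6 and 111 CPM in vehicle spleens (log2 fold change -1.34 ± 0.32, edgeR adjusted p = 0.0365). Rbm3 (chromosome X, 8138975 to 8145880, minus strand), an RNA-binding protein gene known to be induced by mild cold, stood at 541, 346 and 322 CPM in treated spleens and 621, 750.0 and 665 CPM in vehicle spleens (log2 fold change -0.84 ± 0.19, edgeR adjusted p = 0.0166). Rbm3 was also lower in the B cells of treated spleens, at 434 ± 38.8 CPM, against 852, 841 and 840.4 CPM in vehicle spleens. Its relative Cirbp, another cold-induced gene, was picked outside the rule for named genes and did not pass. Cirbp had 22.2, 38.4 and 56.2 CPM in treated spleens and 118, 101 and 73.9 CPM in vehicle spleens. These calls were less stable than that of Ikzf2. Socs3 kept its call in 8 of 17 alternatives, Trnp1 in 6 of 10, Smim4 in 7 of 19 and Rbm3 in 6 of 19. When 1 mouse was left out, Rbm3 passed in 1 of 6 fits, and Smim4 and Socs3 in 2 of 6 each.

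In blood 2 of 2003 genes passed (0.0999%), 1 higher (0.0499%) and 1 lower (0.0499%) in treated mice, tested over treated mice 2 and 4 and all 3 vehicle mice, because treated mouse 3 had fewer than 10 gated cells there. S100a10, an S100 family gene raised in effector and memory T cells, had 263 and 433 CPM in treated blood. In vehicle blood it had 585, 908 and 477 CPM (log2 fold change -0.86 ± 0.20, edgeR adjusted p = 0.0305). Hspa1a, an inducible chaperone gene of the HSP70 family, had 172 and 101 CPM in treated blood and 52.0, 18.2 and 45.1 CPM in vehicle blood (log2 fold change 1.73 ± 0.41, edgeR adjusted p = 0.0305). Hspa1a and Hspa1b are near-identical copies, so the division of reads between them is uncertain. S100a10 ran the other way in mean in spleen, at 1082, 576 and 352 CPM in treated mice and 401, 534 and 289 CPM in vehicle mice, with overlap. DESeq2's Wald test called none of the 2003 genes, with 24 at an unadjusted p under 0.05. S100a10 kept its call in 8 of 14 alternatives and Hspa1a in 5 of 12. None passed without treated mouse 2 or vehicle mouse 1, and 4 passed without vehicle mouse 2 or without vehicle mouse 3.

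With spleen and blood of each mouse summed, 6 of 4137 genes passed (0.145%), 2 of them higher (0.0483%) and 4 lower (0.0967%) in treated mice. Spleen gave 134994 of 222434, 234303 of 292246 and 267095 of 405788 UMIs in treated mice 2, 3 and 4. In vehicle mice 1, 2 and 3 it gave 416802 of 647444, 327994 of 548316 and 324794 of 524159. Hsph1 and Hsp90aa1 also passed as higher in spleen than in blood (below). The part of the tissue mix in the calls of this sum was not tested. Hsph1, a co-chaperone gene of the HSP110 family, had 67.4, 133 and 78.9 CPM in treated mice and 41.7, 41.9 and 38.2 CPM in vehicle mice (log2 fold change 1.16 ± 0.25, edgeR adjusted p = 0.0148). In B cells of the same spleens Hsph1 was also higher without overlap, at 59.8, 88.2 and 101.6 CPM in treated mice and 45.4, 51.5 and 43.9 CPM in vehicle mice. Hsp90aa1, the inducible HSP90 gene, had a log2 fold change of 0.73 ± 0.16 (edgeR adjusted p = 0.0148). It stood at 333, 585 and 648 CPM in treated spleens and 338, 274 and 302 CPM in vehicle spleens, where treated mouse 2 lay within the vehicle range. Lower in treated mice were Socs3 (log2 fold change -1.84 ± 0.41, edgeR adjusted p = 0.0148), Rbm3 (-0.67 ± 0.15, edgeR adjusted p = 0.0148), Mbd2, a reader of DNA methylation (-0.88 ± 0.21, edgeR adjusted p = 0.0322), and Trnp1. Trnp1 fell below the expression limit for named genes in this sum, and was named after its value was seen. Mbd2 had 111, 76.8 and 56.2 CPM in treated spleens and 127, 149 and 175 CPM in vehicle spleens, and in blood 68.6, 86.3 and 93.7 CPM in treated mice and 126, 122 and 140.4 CPM in vehicle mice. In every mouse the treated value was thus below all vehicle values of its tissue. In B cells of the same spleens Mbd2 was at 60.5 ± 4.58 CPM in treated mice and 73.8, 77.0 and 71.0 CPM in vehicle mice, also without overlap. Of 19 alternatives, Hsph1 and Socs3 kept their calls in 11, Hsp90aa1 and Rbm3 in 10 and Mbd2 in 9. None of the 6 passed with DESeq2's Wald test (60 genes at an unadjusted p under 0.05) or without treated mouse 4. The count was 18 without treated mouse 2, 2 without treated mouse 3 and 1 without vehicle mouse 3.

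**Figure D3:**
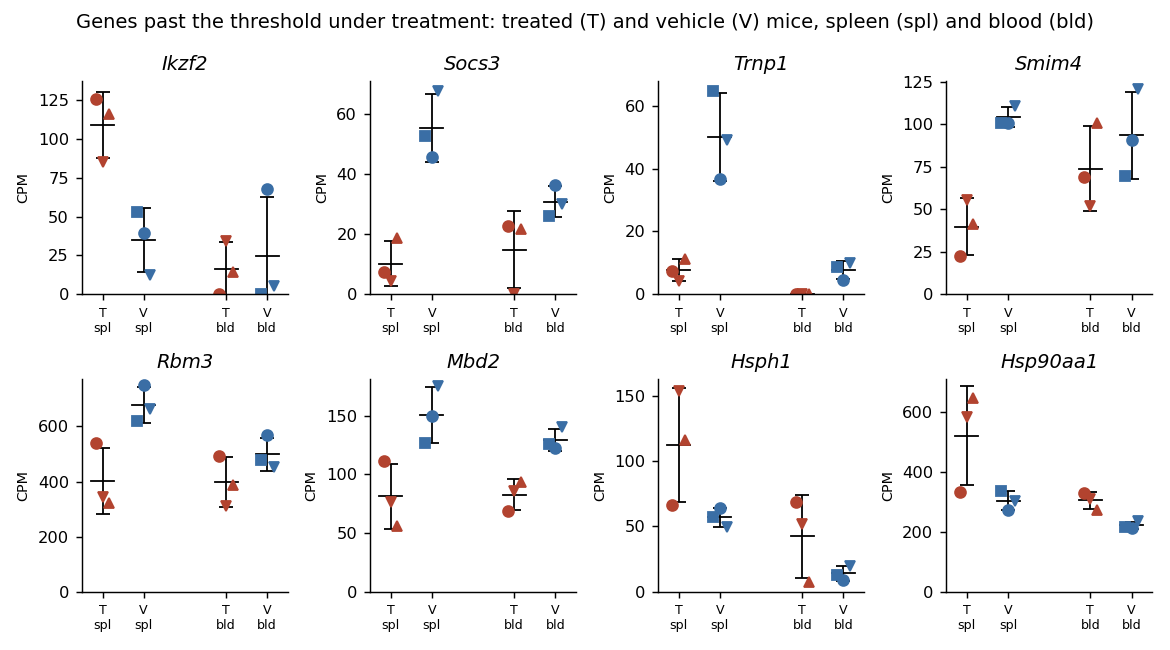
CPM of 8 genes that passed the threshold in spleen or over both tissues, in treated (T, red) and vehicle (V, blue) mice, spleen left and blood right in each panel. Each symbol is 1 mouse (symbols mark mouse numbers), lines are means and error bars SD of 3 mice, cut at 0. Ikzf2 lies at 85.4 CPM or more in treated spleens and at most at 52.8 CPM in vehicle spleens, and Socs3 at most at 18.7 CPM against 45.7 CPM or more.

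Few members of the gene lists passed under treatment. Over all 4137 genes tested over both tissues, 0.0483% were higher and 0.0967% lower, and 2061 had a positive log2 fold change. Of 20 heat shock and folding genes tested there, 2 were higher (Hsph1 and Hsp90aa1) and none was lower. A positive log2 fold change was found for 15 of them, with a median of 0.38 against -0.002 over all genes tested. Of 26 type I interferon response genes, 16 were tested and 0 passed; 14 had a positive log2 fold change, with a median of 0.40. Isg15, a ubiquitin-like interferon response gene, was picked from this list outside the rule for named genes. It was at 44.5, 72.6 and 109 CPM in treated spleens and 28.8, 21.3 and 43.1 CPM in vehicle spleens. Of 20 CREB and CRTC target genes, 12 were tested and 0 passed, with a median of -0.02. Nr4a1, a CREB target and early gene of T cell receptor signalling, was at 22.2, 38.4 and 37.4 CPM in treated spleens and 64.8, 82.3 and 46.2 CPM in vehicle spleens, and did not pass (edgeR adjusted p = 0.632).

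No gene of the naive, memory or effector lists passed in either tissue or in their sum; S100a10, given above for blood, is in none of these lists. Of 18 naive and central memory genes, 18 were tested over both tissues and 0 passed, with a median log2 fold change of -0.03. Of 19 memory and activation genes, 18 were tested and 0 passed (median 0.12), and of 21 cytotoxic effector genes, 8 were tested and 0 passed (median 0.01). Ly6c2 was at 341, 316 and 475 CPM in treated spleens and 427, 360 and 419 CPM in vehicle spleens. The drug's own targets were near the limit of detection. Sik1 averaged 30.0 ± 6.76 CPM in treated spleens and 31.8 ± 4.47 CPM in vehicle spleens. Sik2 and Sik3 were too low to be tested, with 3.74 to 25.6 CPM each in treated spleens. Crem, a CREB-induced transcription factor gene, was also untested, at 22.2, 17.1 and 18.7 CPM in treated spleens and 4.80, 12.2 and 12.3 CPM in vehicle spleens.

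More genes passed between spleen and blood than between the arms. The tissue test was paired within mice and the tests of the arms were not, so the counts do not compare the size of the differences. Over the 5 mice with at least 10 gated cells in both tissues, with the mouse as a block, 156 of 2074 genes passed (7.52%), 48 of them higher (2.31%) and 108 lower (5.21%) in spleen than in blood. Of the higher genes 8 were heat shock and folding genes, and of the lower ones 53 were ribosomal protein genes and 4 were naive and central memory genes. The count was lower in several alternatives, at 18 without vehicle mouse 3 and 29 with hashtag assignment by HTODemux, 63 without treated mouse 4, 91 without vehicle mouse 1 and 82 with DESeq2.

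Of 20 heat shock and folding genes tested, 8 were higher in spleen and none was lower. Over all genes tested 2.31% were higher. The median log2 difference of the list was 0.33 against 0.007 over all genes tested. Hspa1b, an inducible HSP70 gene, had 630, 1349 and 1082 CPM in treated spleens and 705, 887 and 804 CPM in vehicle spleens. In blood it had 57.2, 104 and 93.7 CPM in treated mice and 60.7, 68.1 and 75.2 CPM in vehicle mice, so every spleen lay above every blood sample. The log2 difference was 3.45 ± 0.16 (SE, edgeR adjusted p = 6.96e-28, 5 mice), and the call was kept in all 14 alternatives that could be fitted. Dnajb1, a co-chaperone of HSP70, was 1.84 ± 0.22 higher on the log2 scale (edgeR adjusted p = 2.15e-08), at 158 to 314 CPM in spleens and 35.1 to 103 CPM in blood. Hsph1 was 1.77 ± 0.38 higher (edgeR adjusted p = 0.00157). The other members past the threshold were Hspa1a, Hsp90ab1, Dnaja1, Hspa8 and Hsp90aa1.

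The heat shock factor HSF1 is known to bind repeats of a short unit around GAA, of which the spaced pairs GAANNTTC and TTCNNGAA are the core. The 250 bases before the start of 3 of these genes are shown because the genes differed together, with any match of either pair in capitals, from the RefSeq promoter table.
Hspa1b (GRCm38.p6, chr17:34959239-34959488, minus strand): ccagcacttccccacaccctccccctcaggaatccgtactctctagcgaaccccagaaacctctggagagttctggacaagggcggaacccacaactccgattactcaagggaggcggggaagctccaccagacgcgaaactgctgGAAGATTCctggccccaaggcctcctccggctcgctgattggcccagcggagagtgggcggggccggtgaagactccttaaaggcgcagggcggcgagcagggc
Hsph1 (GRCm38.p6, chr5:149636337-149636586, minus strand): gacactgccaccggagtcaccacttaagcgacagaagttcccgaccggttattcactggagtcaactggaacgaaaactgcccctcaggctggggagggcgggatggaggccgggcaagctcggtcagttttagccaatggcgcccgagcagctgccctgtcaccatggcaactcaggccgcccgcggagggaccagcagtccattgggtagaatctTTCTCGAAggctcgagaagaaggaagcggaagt
Dnaja1 (GRCm38.p6, chr4:40722218-40722467, plus strand): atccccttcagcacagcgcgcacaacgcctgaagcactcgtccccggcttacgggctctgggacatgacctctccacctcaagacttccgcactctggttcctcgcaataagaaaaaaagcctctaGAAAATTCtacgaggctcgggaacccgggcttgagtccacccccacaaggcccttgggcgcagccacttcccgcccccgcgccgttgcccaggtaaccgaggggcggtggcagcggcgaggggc
Each motif reads the same on both strands, and none of the matches shown overlaps another. Of the 8 genes, 5 were in the table (Hspa1b, Hspa1a, Hsph1, Dnaja1 and Dnajb1), and 4 of them held a match in this window, against 12.9% of 27025 genes in the table. The Hspa1a and Hspa1b windows matched at 247 of 250 bases, so they are not separate instances. The window of Dnajb1 held no match. A match describes letters and is not a bound site.

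Ddit4 and Egr1 were higher in spleen as well, while the lists that hold them were mixed. Of 8 glucocorticoid and mRNA decay genes tested, 2 were higher (Ddit4 and Zfp36l2) and none was lower, with a median log2 difference of -0.04. Of 13 AP-1 and immediate early genes tested, 2 were higher (Egr1 and Jun) and 3 were lower (Junb, Tnfaip3 and Btg1), with a median of 0.20. Over all genes tested 2.31% were higher and 5.21% lower. Ddit4, an inhibitor of mTOR signalling induced by stress and glucocorticoids, had 81.5, 68.3 and 48.7 CPM in treated spleens and 110.4, 149 and 95.5 CPM in vehicle spleens, and at most 21.7 CPM in any blood sample (log2 difference 3.06 ± 0.39, edgeR adjusted p = 9.89e-08). Egr1, an immediate early transcription factor of T cell receptor signalling, was 1.90 ± 0.29 higher (edgeR adjusted p = 2.15e-05), at 98.4 to 226 CPM in spleens and 10.0 to 86.3 CPM in blood. Among T cell genes, Klrk1, the activating receptor NKG2D, was 1.71 ± 0.37 higher (edgeR adjusted p = 0.00199). Also higher were Itgal, an integrin chain (0.80 ± 0.26, edgeR adjusted p = 0.0414), Runx3, a transcription factor of cytotoxic cells (0.70 ± 0.20, edgeR adjusted p = 0.0196), Bcl2, a survival gene (0.55 ± 0.17, edgeR adjusted p = 0.0442), and the T cell receptor signalling genes Ptpn22 and Cd6. Of 14 alternatives, Itgal and Bcl2 kept their calls in 5, Runx3 in 6, Cd6 in 9 and Ptpn22 in 11. Itgal passed in 1 of 5 fits without 1 mouse. Klrk1 stood at 200, 25.6 and 78.6 CPM in treated spleens and 33.6, 54.9 and 61.6 CPM in vehicle spleens, and at 8.67 to 50.2 CPM in blood. Of 19 memory and activation genes 15 were tested, 2 were higher and none was lower (median 0.55), against 2.31% of all genes tested that were higher.

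The genes lower in spleen were in large part ribosomal protein genes, a group chosen after the calls were seen. Of 81 tested, 53 were lower by 0.19 to 0.46 on the log2 scale and none was higher, against 5.21% of all genes tested that were lower. Of 18 naive and central memory genes 17 were tested, 4 were lower (Ccr7, Klf2, Dapl1 and Foxp1) and none was higher, with a median log2 difference of -0.42. The other 13 did not pass, and Foxp1 kept its call in 6 of 14 alternatives. Ccr7 had 81.5, 154 and 86.1 CPM in treated spleens and 108, 82.3 and 95.5 CPM in vehicle spleens. In blood it had 263, 276 and 274 CPM in treated mice and 126, 249.6 and 191 CPM in vehicle mice (log2 difference -1.26 ± 0.19, edgeR adjusted p = 9.43e-06). Klf2, which drives the egress receptor S1pr1, averaged 719 ± 94.7 CPM in spleen and 1007 ± 167 CPM in blood (SD, 6 mice) (log2 difference -0.57 ± 0.10, edgeR adjusted p = 5.61e-05). Its relative Klf3 was lower by more (-0.99 ± 0.18, edgeR adjusted p = 0.000139), as were the splicing factor gene Srsf5 (-0.98 ± 0.13, edgeR adjusted p = 1.47e-07) and the AP-1 gene Junb (-0.70 ± 0.11, edgeR adjusted p = 2.15e-05). Tcf7, a transcription factor of naive and memory cells, did not pass (log2 difference -0.30 ± 0.16, edgeR adjusted p = 0.316).

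These tissue differences stood beside 2 others. The gated cells of spleen held more cells with 6 or more gate UMIs, as given above, and the part of this in the Klrk1, Ccr7 and other values was not tested. B cells of the same samples differed between tissues for many of the same genes. In B cells Hspa1b averaged 849 ± 289 CPM in spleen and 105 ± 10.7 CPM in blood, and Dnajb1 183 ± 35.7 and 74.7 ± 6.88 CPM (SD, 6 mice), both higher in spleen in 6 of 6 mice. Ccr7 averaged 66.0 ± 20.7 CPM in spleen B cells and 170 ± 51.2 CPM in blood B cells, and Klf2 481 ± 94.7 and 1376 ± 48.0 CPM, both lower in spleen in 6 of 6 mice. Klrk1 ran the other way, at 18.9 CPM in spleen B cells and 59.9 CPM in blood B cells. The blood B cell mean lay above the value of the gated CD8 T cells in every blood sample. The part of free RNA and of NK cells in that mean was not tested. Itgal and Bcl2 also had the lower mean in spleen B cells, at 65.2 CPM against 102 CPM in blood B cells for Itgal and 108 against 139 CPM for Bcl2. No test compared the 2 cell types.

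**Figure D4:**
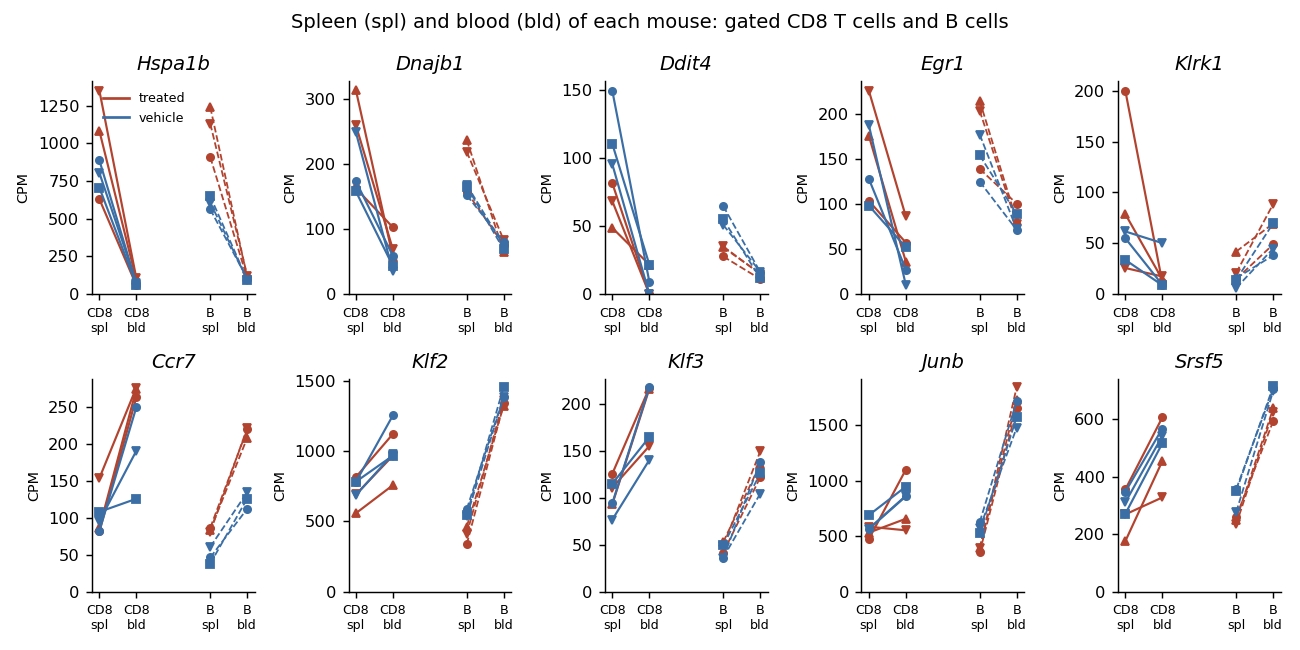
CPM of 10 genes in spleen (spl) and blood (bld), for gated CD8 T cells (CD8, solid lines) and B cells (B, dashed lines) of each treated (red) and vehicle (blue) mouse. Each line joins the 2 tissues of 1 mouse. Hspa1b, Dnajb1, Ddit4 and Egr1 are higher in spleen in both cell types in 6 of 6 mice, while Klrk1 is higher in spleen in the CD8 T cells and lower in spleen in the B cells. The part of free RNA and of other cell types in the B cell values was not tested.

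The treatment effect differed between spleen and blood for 8 of 2892 genes (0.277%), tested as an interaction over the same 5 mice. The log2 fold change was higher in spleen than in blood for 5 genes (0.173%) and lower for 3 (0.104%). Gzma led, with 1044 and 3.74 CPM in the spleens of treated mice 2 and 4, 43.2, 6.098 and 15.4 CPM in vehicle spleens, 57.2 and 0 CPM in treated blood, and 290.5, 13.6 and 206 CPM in vehicle blood. The high value came from treated mouse 2, whose 19 spleen cells also had the highest NK marker sum, and none of the 8 genes passed without that mouse. Without vehicle mouse 1 the count was 1, and without vehicle mouse 3 it was 17. In the B cell set, which excluded no NK cells, Gzma averaged 91.1 ± 65.7 CPM in spleen and 535 ± 136 CPM in blood (SD, 6 mice). The part of free RNA in the Gzma values of the gated cells was not tested. Against the CD8 T cells with at most 1 gate UMI, the treatment effect in the gated cells differed for 0 of 2647 genes (0%), with 85 at an unadjusted p under 0.05. DESeq2's Wald test also called 0, with 20 at an unadjusted p under 0.05. This set replaced the CD8 T cells without any gate UMI, which were too few.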

How the data were processed

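The deposited matrix gives UMI counts per gene and hashtag for each barcode, which the authors made with Cell Ranger 6.1.1 on mm10, per the submitters' processing notes and the file headers. Hashtags were matched to arm, mouse and tissue by the deposited hashtag notes. Kept barcodes had 200 or more genes, 500 or more gene UMIs and a mitochondrial share up to 10%, and were assigned where the top hashtag held at least 80% of at least 20 hashtag UMIs. This rule removes cells with 2 hashtags, and no other doublet caller was run. The members and gene lists were chosen with earlier results of these data known.

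Counts of the gated cells were summed per mouse, with at least 10 cells per sum. They were tested with edgeR 4.0.16 (quasi-likelihood test, TMM, filterByExpr, two-sided, Benjamini-Hochberg adjustment at 0.05), checked on simulated counts. CPM is per 1000000 gene UMIs of the summed cells. Gate genes were left out of counts of calls. Shares were compared with an exact two-sided permutation test. The mouse is the replicate, and floors of 3 counts cover counting error only. The planned interaction against CD8 T cells with no gate UMI used those with at most 1, since those with none were too few.

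In each treatment comparison and in spleen minus blood, named genes are up to 10 per direction past the threshold whose mean logCPM reached 5 and whose groups did not overlap. Added to these are up to 4 called genes per list, the 5 smallest p of an interaction and a fixed set of T cell genes, of which 1 is not reported here. Alternatives were other hashtag rules (90%, HTODemux of Seurat 5.3.0), filters, gates, scalings, DESeq2 1.42.0 and leaving out each mouse. B cell values, ribosomal genes and other shares were added after the data were seen. Isg15 and Cirbp were picked outside the rule for named genes. Gene locations are from GENCODE (GRCm38). The ascites library was used only to count shared barcodes.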

Additional observations from a re-analysis of the deposited data

Results flagged for a closer look

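The treatment effect differed between spleen and blood, by the interaction test of edgeR over 5 mice, for 8 genes. The values are the log2 fold change (treated over vehicle) in spleen minus that in blood. They were 7.02 for Gzma (edgeR adjusted p = 2.38e-33), 2.42 for Ctla2a, 1.62 for Lgals1, 2.35 for Sh2d1a, 3.64 for S100a6, -0.36 for Gm42418, -1.67 for Hspa1a and -1.31 for Tsc22d3. None of the 8 passed without treated mouse 2, which had 19 gated spleen cells, and Gzma passed in the other 13 alternatives that could be fitted. Hspa1a shares reads with its copy Hspa1b, so its value is uncertain.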

How the results depend on the processing

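The lower share of gated CD8 T cells among assigned cells kept its sign in each alternative run, and ranged from -4.54 to -3.47 points in spleen and from -3.62 to -2.44 points in blood when 1 mouse was left out. The gated share of CD8 T cells in spleen (-2.64 points) changed sign with at least 6 gate UMIs (0.431) and with cells thinned to 2000 UMIs (4.06), and ranged from -5.60 to 1.77 when 1 mouse was left out. In blood (-9.63 points) it changed sign with cells that have a Cxcr3, Il2rb or Eomes UMI (0.852) and with thinning (1.51), and ranged from -11.4 to -7.90 when 1 mouse was left out. Thinning left out 82 treated and 81 vehicle cells.

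The count for treatment in spleen (5) became 8 with HTODemux, 1 at the 5% mitochondrial limit, 2 with at least 3 gate UMIs, 1 without cells with NK or gamma delta UMIs, 2 without the 5% of cells with most UMIs, 0 with a Cxcr3, Il2rb or Eomes UMI, 0 with at least 6 gate UMIs, 15 with at least 20 cells per sum, 10 without the count filter and 0 with DESeq2. In blood (2) it became 0 with HTODemux, 1 without NK or gamma delta cells, 1 without the count filter and 0 with DESeq2. Over both tissues (6) it became 0 at the 5% mitochondrial limit, 3 with at least 3 gate UMIs, 0 with a Cxcr3, Il2rb or Eomes UMI, 0 with at least 6 gate UMIs and 0 with DESeq2. For spleen minus blood (156) it became 29 with HTODemux, 72 without NK or gamma delta cells, 73 without the count filter and 82 with DESeq2. For treatment by tissue (8) it became 3 with at least 3 gate UMIs, 2 without the cells with most UMIs, 2 with at least 5 cells per sum and 1 with DESeq2. For treatment by subset (0) it became 2 with HTODemux and 2 without the count filter. Leaving out 1 mouse gave 0 to 15 calls in spleen, 0 to 4 in blood, 0 to 18 over both, 18 to 143 for spleen minus blood, 0 to 17 for treatment by tissue and 0 for treatment by subset. A single remaining sample of an arm was then assumed to vary like the others. The causes were not tested.

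A replicate block on the mouse number gave 0 calls in spleen and 64 over both tissues (59 of them lower), and within-number differences of -1.05 and -3.67 points in spleen and -8.30 and -2.92 in blood for the shares of CD8 T cells and of assigned cells. Only numbers 2 and 3 occur in both arms, they name different animals, and their deviations correlated at 0.0439 and 0.0246, so the numbers do not pair the samples. Over all alternatives, 1749 values of named genes kept their side of the threshold, 290 lost it, 4 gained it and 0 changed sign among called genes. Blood, spleen minus blood and treatment by tissue could not be fitted at the 5% mitochondrial limit, with at least 20 cells per sum or with either narrower gate. Nor could treatment by subset at the first 2, or blood with the block. The alternatives with 5 cells, at most 1 gate UMI and the narrower gates were chosen after seeing the data. The 9 to 57 cells per mouse and tissue limit what can be detected.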
